A study of Mus musculus with 6 samples.

Results

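Oxidative phosphorylation is the mitochondrial process in which electrons from nutrients pass along the respiratory chain and the energy released drives ATP synthase. Complex I (NADH dehydrogenase) and complex II (succinate dehydrogenase) feed electrons to coenzyme Q, complex III passes them to cytochrome c, complex IV (cytochrome c oxidase) hands them to oxygen, and complex V is the ATP synthase. Most subunits are encoded in the nucleus, a few core ones in mitochondrial DNA, and blood stem cells are known for relying more on glycolysis than their progeny do. The genes described here are the nuclear-encoded subunits, chosen by gene symbol alone: Nduf genes of the a, b, c, s and v series, Sdha to Sdhd, Uqcr genes and Cyc1, Cox4 to Cox8 genes, and Atp5 genes. Of 24110 genes in the deposited table, 84 met the rule, and 1 more, Cox8c, was left out because it was at 0 in all 6 libraries. Complexes I to V held 37, 4, 9, 17 and 17 of them.

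RNA came from mouse hematopoietic stem cells, which sustain blood formation for life, gated as Lineage-, Sca-1+, CD48- and CD150+. There were 3 Prmt5 KO libraries, with both floxed copies of Prmt5 deleted, and 3 Prmt5 fl/fl libraries, with the floxed gene intact, all from C57BL/6 mice sampled 7 days after induction. Each library pooled cells of 2 mice, with litter and sex matched across genotypes, while the agent of induction, the Cre driver and the age were not in the sources used here. The Prmt5 enzyme adds methyl groups to arginines, those of spliceosomal Sm proteins among them. Totals were 37834096 to 41812565 reads in genes in Prmt5 KO libraries and 42213314 to 44704636 in Prmt5 fl/fl libraries. All levels below are scaled counts, that is, reads brought by the authors to 1 common total of 44704636. In such bulk samples fewer cells of a type and less RNA per cell cannot be told apart. Prmt5 itself averaged 1001 ± 90.2 scaled counts in Prmt5 KO and 6037 ± 34.9 in Prmt5 fl/fl (SD, n = 3 each), and the log2 fold change was -2.60 (limma, adjusted p = 6.18e-04), or adjusted p = 0.0618 in limma with library pairs as a block.

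The libraries differed in ways that touch the results below. Prmt5 fl/fl replicate 3 stood above the other fl/fl libraries in short genes and below them in long ones. Over all tested genes of over 500 and up to 1000 bases its median log2 difference from the mean of fl/fl replicates 1 and 2 was 0.50, and over genes longer than 8000 bases it was -0.72. Genes of the gate and of the stem cell programme, Cd48 among them, were present, with 11 of 11 tested and a summed level of 126804 to 148371 scaled counts in Prmt5 KO and 129751 to 179112 in Prmt5 fl/fl. Cd48, excluded by the gate, was at 492 to 676 in KO and 446 to 757 in fl/fl. Granulocyte and monocyte markers (8 of 9 listed genes in the table) summed to 62737 to 541752 in KO and 55749 to 197764 in fl/fl, and the highest sum was that of KO replicate 3. S100a8, S100a9 and Lyz2, at 153117, 211095 and 150277 there, made up most of it, while 5 of the 8 genes had folds below 0. T cell markers summed to 76.8, 118 and 636 in KO, the highest again in replicate 3, and to 132 to 204 in fl/fl. Red cell precursor markers summed to 2109 to 2566 in KO and 3303 to 9291 in fl/fl, with the 4 hemoglobin genes listed at 0 in all libraries, and megakaryocyte and platelet markers to 31573 to 59679 in KO and 71638 to 87624 in fl/fl. The part of these differences in the values of the subunit genes was not tested, except where a value with and without a library, or by gene length, is given.

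As a group the subunit genes were abundant and close between the genotypes. The 84 genes took 1.78%, 1.63% and 1.48% of all reads in genes in Prmt5 KO replicates 1 to 3, against 1.45%, 1.36% and 1.88% in Prmt5 fl/fl replicates 1 to 3. The KO libraries thus all lay between fl/fl replicates 1 and 2 on the low side and fl/fl replicate 3 on the high side. The means were 1.63% ± 0.150 in Prmt5 KO and 1.56% ± 0.274 in Prmt5 fl/fl (SD, n = 3 each), a difference smaller than either SD. Of the 84 genes, 79 averaged 10 scaled counts or more across the 6 libraries and were tested, all but 2 of them with a mean of at least 1000. The 79 tested genes were 292 to 2927 bases long, with a median of 727 bases, against 2808 bases for all 14113 genes tested.

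No subunit gene passed the test between genotypes. At an adjusted p below 0.05 limma called 0 of 79 higher and 0 lower in Prmt5 KO, where it called 0.276% of all tested genes higher and 0.453% lower. At an unadjusted p below 0.05 there was 1 subunit gene higher, Cox4i2, and 1 lower, Cox6b2, against a background of 4.58% higher and 13.6% lower. EdgeR also called 0 of the 79 (background 0.241% higher and 0.184% lower), while DESeq2 called 1 higher, Cox4i2, and 1 lower, Cox6b2 (background 2.59% and 4.36%). With library pairs as a block limma called 0 of the 79, against 0.00709% of all genes higher and 0% lower. The log2 fold changes of 76 of the 79 genes were within 0.5 of 0, and 57 were above 0, against 44.8% of all tested genes, and 22 below, against 55.2%. The median log2 fold change was 0.07 for the subunit genes and -0.05 for all genes tested. By complex it was 0.07 for complex I, 0.01 for complex II, 0.07 for complex III, 0.12 for complex IV and 0.09 for complex V. The median standard error of a single subunit gene's log2 fold change was 0.17.

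**Figure D1:**
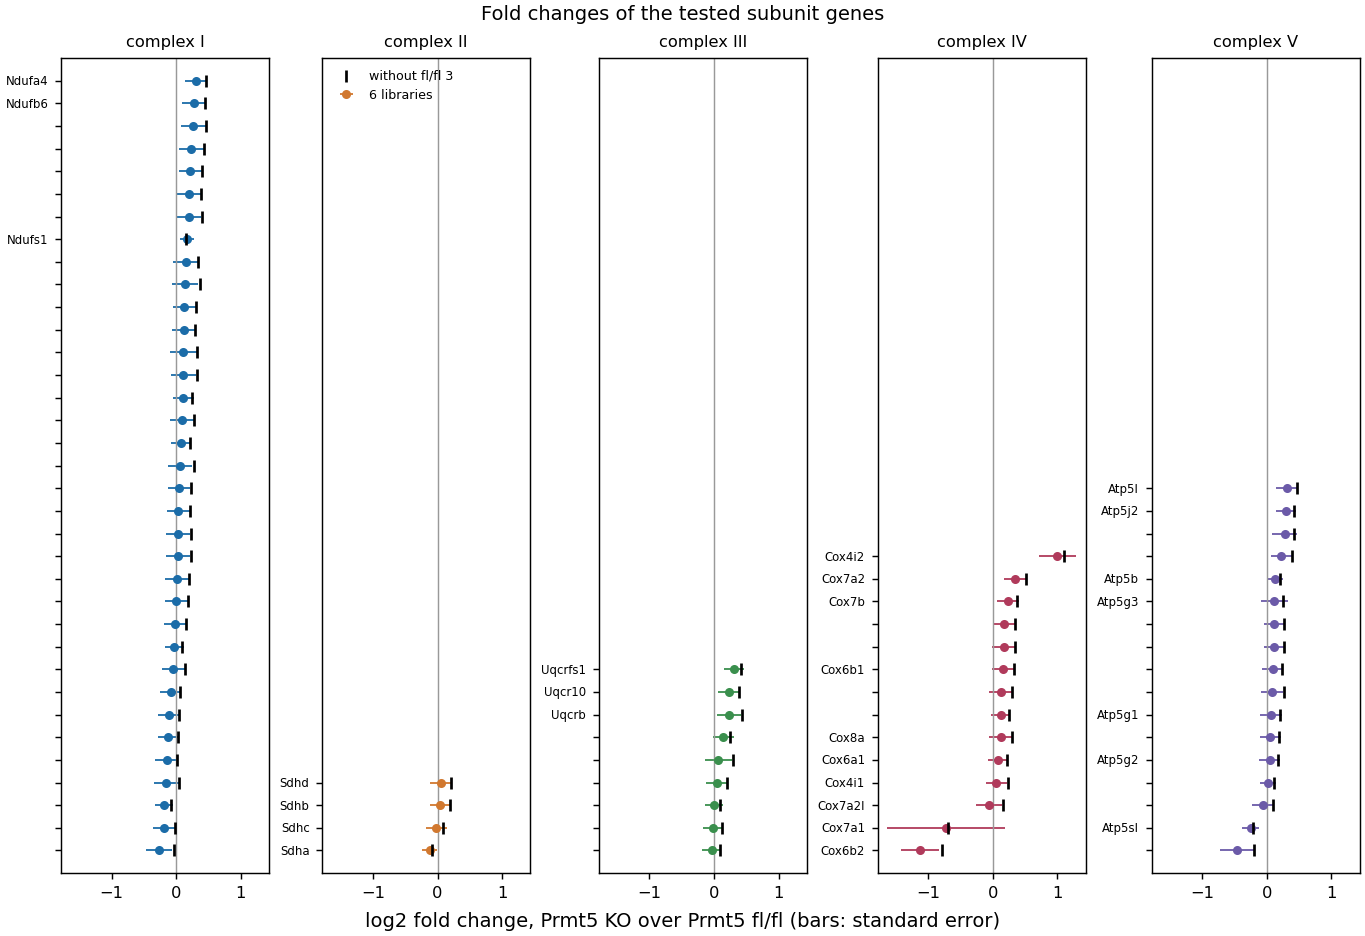
Log2 fold change of each of the 79 tested subunit genes, Prmt5 KO over Prmt5 fl/fl, in 1 panel per complex, with names for the genes given in full; dots are limma estimates from 6 libraries with standard errors, and black ticks the values without fl/fl replicate 3. All but Cox4i2, Cox7a1 and Cox6b2 lie within 0.5 of 0, and most ticks lie to the right of their dots.

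Most of the genes ranked the libraries in a similar order. Prmt5 fl/fl replicate 3 was the highest fl/fl library for 78 of the 79 tested genes, against 43.7% of all tested genes, and the exception was Ndufs1. Fl/fl replicate 2 was the lowest fl/fl library for 65 of them. Among the KO libraries replicate 1 was the highest for 70 and replicate 3 the lowest for 74. The shares of all tested genes were not computed for fl/fl replicate 2 or the KO libraries. Those counts are thus not read as particular to the subunit genes. The subunit genes stood in fl/fl replicate 3 at a median log2 of 0.48 above the mean of fl/fl replicates 1 and 2, with a range from -0.05 to 1.05. Measured from that same mean, the medians were 0.35, 0.23 and 0.10 in KO replicates 1 to 3. Between the KO and the fl/fl library with a common title prefix, the median log2 difference of the subunit genes was 0.33 in the first pair, 0.29 in the second and -0.38 in the third, against -0.09, -0.06 and -0.10 for all tested genes.

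**Figure D2:**
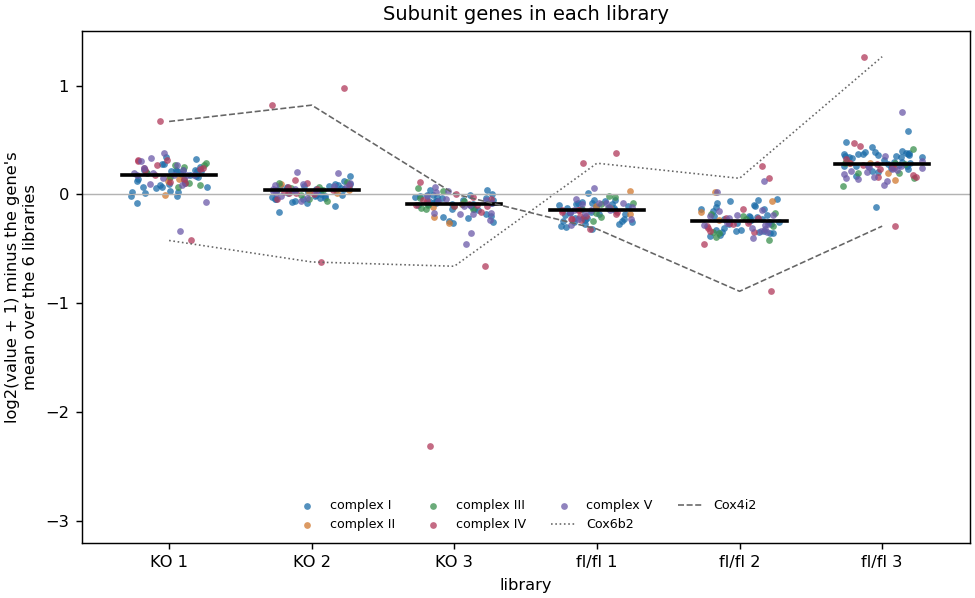
Log2(scaled count + 1) of the 79 tested subunit genes in each library, relative to each gene's mean over the 6 libraries and coloured by complex; black bars are medians over genes, and the lines follow Cox6b2 and Cox4i2. The points shift together, highest in fl/fl replicate 3 and lowest in fl/fl replicate 2. Cox6b2 and Cox4i2 keep that order among the fl/fl libraries, while every KO value lies below them for Cox6b2 and above them for Cox4i2.

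The comparison depended on fl/fl replicate 3. Without that library 71 of 79 subunit genes had a log2 fold change above 0, against 40.3% of all tested genes, and 8 one below, against 59.7%. The median was 0.23, against -0.08 over all tested genes. At an unadjusted p below 0.05, 37 were then higher and 1 lower, where the background was 7.48% higher and 16.3% lower. After adjustment limma called 0 higher and 1 lower, Cox6b2, against 0.857% and 1.82% of all genes. In 51 of the 79 genes all 3 KO values were above both fl/fl replicate 1 and fl/fl replicate 2, which was so for 14.8% of all tested genes. Without fl/fl replicate 2 the median turned to -0.03. Comparisons with fl/fl replicates 1 and 2 alone rest on 2 libraries on that side, and the choice to leave out fl/fl replicate 3 was made after its values were seen.

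Gene length moved with both patterns. Among lengths over 500 and up to 1000 bases, where 37 subunit genes lie, fl/fl replicate 3 stood 0.52 above the other fl/fl libraries for the subunit genes and 0.50 for all 946 tested genes of that length. For the 23 subunit genes of over 1000 and up to 2000 bases the medians were 0.46 for the subunit genes and 0.37 for all genes of that length. Up to 500 bases the medians were 0.48 for the subunit genes and 0.34 for all genes, and over 2000 and up to 4000 bases 0.10 and -0.0062. The subunit medians were thus above those of all genes, which include the subunit genes, in each of these bins. Gene length as a cause of the height of fl/fl replicate 3 was not tested. The median log2 difference of Prmt5 KO from fl/fl replicates 1 and 2 was 0.33 for the subunit genes of up to 500 bases and 0.18 for all genes of that length. Above 500 and up to 1000 bases it was 0.28 for the subunit genes and 0.03 for all genes, and above 1000 and up to 2000 bases 0.19 and -0.06. When each library's trend over gene length was removed, an alternative added after seeing the data, the median of the subunit genes was 0.21 and that of all genes 0.02. Folds above 0 were then seen in 67 of 79, against 52.9% of all genes, and below 0 in 12, against 47.1%. At an unadjusted p below 0.05, 45 were higher and 1 lower, against 12.3% and 12.4%. Limma then called 3 subunit genes higher, Ndufa4, Uqcrfs1 and Cox7a2, and 1 lower, Cox6b2, against a background of 1.64% higher and 1.69% lower.

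**Figure D3:**
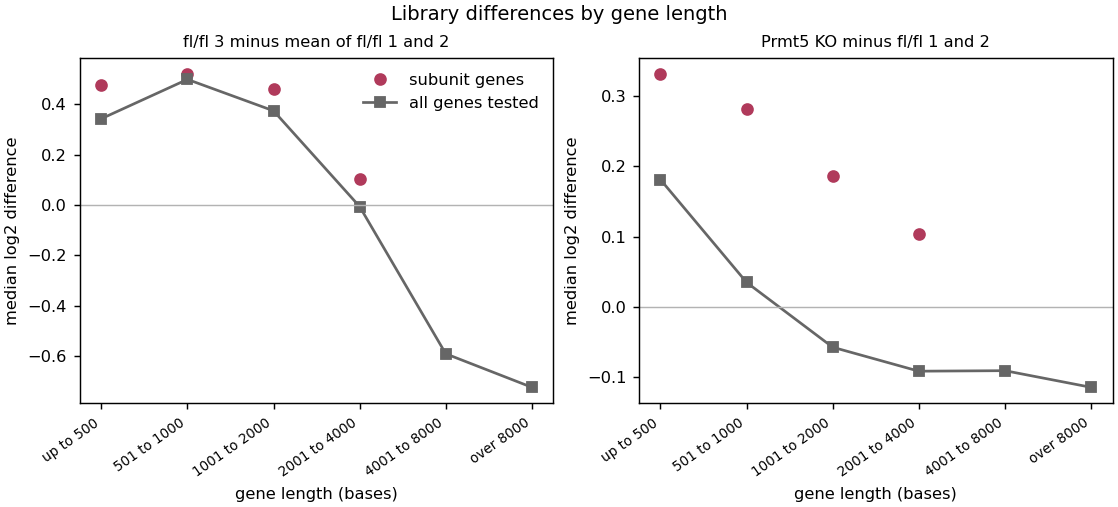
Median log2 difference by gene length for fl/fl replicate 3 minus the mean of fl/fl replicates 1 and 2 (left) and for Prmt5 KO minus fl/fl replicates 1 and 2 (right); squares are all tested genes and dots the subunit genes of that length. On the left the dots lie within 0.14 of the squares, and on the right they lie above the squares in each of the 4 length bins that hold subunit genes.

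Complex I takes electrons from NADH, and its 35 tested genes had log2 fold changes from -0.27 (Ndufa6) to 0.30 (Ndufa4). Ndufs1, the largest iron-sulfur subunit, was at 8405, 7848 and 7312 scaled counts in Prmt5 KO replicates 1 to 3, against 7142, 7041 and 6840 in Prmt5 fl/fl replicates 1 to 3. The groups did not overlap, and the log2 fold change was 0.16, standard error 0.11 (limma, adjusted p = 0.476). Ndufs1 was also 1 of 5 tested subunit genes whose groups did not overlap, 2 of them higher in KO against 8.3% of all tested genes and 3 lower against 19.9%. Among the accessory subunits, which surround the core, 20 of the 25 tested genes of the a, b and c series, Ndufa4 included, had folds above 0. Among all tested genes the share was 44.8%. Ndufa4, listed by its symbol with complex I but found in complex IV, was at 12669, 11746 and 10368 in KO, against 8545, 8271 and 11702 in fl/fl. Its KO values lay above fl/fl replicates 1 and 2 and on both sides of fl/fl replicate 3, at log2 fold change 0.30, standard error 0.16 (limma, adjusted p = 0.385). Ndufb6, an accessory subunit of the membrane arm, was at 4782, 4006 and 3689 in KO, against 3113, 2935 and 4339 in fl/fl, so the groups overlapped again through fl/fl replicate 3 (log2 fold change 0.28, limma adjusted p = 0.470). Of the exonic bases of Ndufb6, 39.0% are shared with Smim27 on the other strand, and reads carry no strand information.

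Ndufs5, a small subunit of complex I, went against the abundance of its complex. It had 0 reads in all 3 KO libraries and in fl/fl replicates 1 and 2, and 1 read in fl/fl replicate 3, while the tested complex I genes averaged 74.7 to 988 TPM, a level per transcript length computed from the deposited gene lengths. The high end is that of Ndufa4, placed in complex I by its symbol only. The low end is that of Ndufa11, whose deposited length of 2661 bases exceeds its 1092 exonic bases in GENCODE M21. Ndufs5 lies on chromosome 4 (123712710 to 123718202, minus strand, GRCm38/mm10 with GENCODE M21), and its coding sequence has a near-identical copy, the processed pseudogene BC002163 on chromosome 16 (42955631 to 42955949, plus strand). Over the 318 coding bases the sequences differ at 2 positions, an identity of 99.4%. An 80-base stretch that begins at coding base 53 of Ndufs5, with the matching stretch of the copy, is shown because it holds both differences, in capitals:
Ndufs5: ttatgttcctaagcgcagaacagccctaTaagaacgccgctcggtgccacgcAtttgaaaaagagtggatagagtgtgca
BC002163: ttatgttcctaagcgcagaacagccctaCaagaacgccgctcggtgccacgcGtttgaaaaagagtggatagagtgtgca
BC002163 was itself listed at 191, 161 and 159 scaled counts in KO, against 171, 138 and 191 in fl/fl. The copy aligned with 319 of the 525 bases of the Ndufs5 transcript searched. How reads that match several places were counted is unknown here. The cause of the low Ndufs5 count was not tested, and the value is uncertain and is not read as absence. In all, 9 of 83 subunit genes searched had a transcript of another gene with at least 98% identity over at least 50% of their own length. These were Ndufs5, Ndufa12, Ndufs3, Uqcrb, Cox7c, Atp5g1, Atp5g2, Atp5h and Atp5l, so their levels are uncertain. Those other than Ndufs5 averaged 2499 (Atp5l) to 10906 (Atp5g1) scaled counts over all libraries.

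Complex II oxidises succinate in the tricarboxylic acid cycle and is encoded wholly in the nucleus. Its 4 genes were the flattest of the 5 complexes, with log2 fold changes from -0.12 to 0.05. Sdha, the flavoprotein that binds succinate, was at 23149, 23609 and 20178 in Prmt5 KO, against 23736, 23637 and 25459 in Prmt5 fl/fl. All KO values were below all fl/fl values, by a margin smaller than the spread within KO, and the log2 fold change was -0.12, standard error 0.11 (limma, adjusted p = 0.580). Sdhb, the iron-sulfur subunit, averaged 10077 ± 747 in KO and 9946 ± 1916 in fl/fl. The membrane anchors were as close, Sdhc at 4705 ± 692 in KO and 4743 ± 556 in fl/fl, and Sdhd at 12537 ± 1155 in KO and 12229 ± 2468 in fl/fl (SD, n = 3 each). Their log2 fold changes were 0.03, -0.02 and 0.05 (limma, adjusted p = 0.928, 0.966 and 0.894). That of Sdhc was above 0 with median-of-ratios size factors, TMM, edgeR, DESeq2 and the gene length trend removed.

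Complex III passes electrons from coenzyme Q to cytochrome c. Its 2 nuclear-encoded catalytic subunits are Uqcrfs1 and Cyc1. Uqcrfs1, the Rieske iron-sulfur protein, was at 9097, 8049 and 7790 in Prmt5 KO, against 6854, 5575 and 7895 in Prmt5 fl/fl. KO replicate 3 alone lay below the highest fl/fl value, and the log2 fold change was 0.31, standard error 0.16 (limma, adjusted p = 0.350). Cyc1, cytochrome c1, averaged 10848 ± 852 in KO and 10901 ± 1455 in fl/fl (SD, n = 3 each), and the sign of its log2 fold change, -0.0016, turned with the scaling. The other 7 genes form the core and the small subunits. Their log2 fold changes ran from -0.04 for Uqcrc1, whose sign also turned with the scaling, to 0.23 for Uqcr10. Above 0 were 5 of 7, against 44.8% of all tested genes. Uqcr10 was at 7080, 6356 and 5721 in KO, against 5086, 4618 and 6726 in fl/fl, and Uqcrb averaged 8642 ± 828 in KO and 7489 ± 1938 in fl/fl. Neither passed the test (limma, adjusted p = 0.502 and 0.547).

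Complex IV held the 2 subunit genes with an unadjusted p below 0.05, both of them alternative forms of a subunit. Cox6b2, the form of subunit 6b best known from testis, was at 781, 681 and 663 scaled counts in Prmt5 KO, against 1278, 1161 and 2520 in Prmt5 fl/fl. Every KO value was below every fl/fl value, and the 3 KO values lay close together while fl/fl replicate 3 was the highest of all. The means were 708 ± 63.7 in KO and 1653 ± 753 in fl/fl (SD, n = 3 each), which is -1.13 on the log2 scale, standard error 0.30 (limma, adjusted p = 0.113). Without fl/fl replicate 3 the log2 fold change was -0.79 (limma, adjusted p = 0.0437), and over all alternatives the adjusted p ran from 0.0102 with DESeq2 to 0.313 without KO replicate 1. Its widely expressed counterpart Cox6b1 was at 13781, 11845 and 11530 in KO, against 10208, 9478 and 14089 in fl/fl. The groups of Cox6b1 overlapped, at 0.16 on the log2 scale (limma, adjusted p = 0.659).

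The share of Cox6b2 in Cox6b transcripts, taken per length, does not depend on the scaling of a library. It was 4.43%, 4.49% and 4.49% in Prmt5 KO, against 9.30%, 9.11% and 12.8% in Prmt5 fl/fl. The KO libraries were nearly equal and all below the fl/fl libraries, with means of 4.47% ± 0.0349 in KO and 10.4% ± 2.06 in fl/fl (SD, n = 3 each). The exact permutation test, two-sided, gave p = 0.1, below which groups of 3 cannot go, and 0.275 after adjustment over the 11 isoform shares compared. Cox6b2 lies on chromosome 7 (4751792 to 4753094, minus strand) and Cox6b1 on the same chromosome (30616861 to 30626151, minus strand, GRCm38/mm10 with GENCODE M21). The bases nearest the start of each gene, out of 250 before its RefSeq start (GRCm38.p6), that lie in no GENCODE M21 exon are shown because the 2 genes encode forms of 1 subunit and their values differed, with matches of the CCAAT box (CCAAT), on either strand, in capitals:
Cox6b2, chr7:4753095-4753225, minus strand: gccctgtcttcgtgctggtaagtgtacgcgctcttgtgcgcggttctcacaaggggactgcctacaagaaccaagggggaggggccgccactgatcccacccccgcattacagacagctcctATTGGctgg
Cox6b1, chr7:30626152-30626364, minus strand: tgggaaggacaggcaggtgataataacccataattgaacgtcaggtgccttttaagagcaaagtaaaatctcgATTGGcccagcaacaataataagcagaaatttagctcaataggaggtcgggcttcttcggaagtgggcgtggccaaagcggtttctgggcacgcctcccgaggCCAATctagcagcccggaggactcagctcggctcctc
Both stretches hold the CCAAT letters, as do 37.4% of all RefSeq windows, counted from 250 bases before to 50 after the start. Neither stretch holds those of the GC box (GGGCGG) or the ETS motif (CCGGAAG).

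Cox4i2, the form of subunit 4 best known from lung and from low oxygen, lay the other way. It was at 527, 585 and 332 scaled counts in Prmt5 KO, against 265, 178 and 270 in Prmt5 fl/fl. Every KO value was above every fl/fl value, with KO replicate 3 the nearest to them. The means were 481 ± 133 in KO and 238 ± 51.8 in fl/fl (SD, n = 3 each), which is 1.00 on the log2 scale, standard error 0.29 (limma, adjusted p = 0.140). Over all alternatives the adjusted p ran from 0.0109 with DESeq2 to 0.402 without KO replicate 1. Cox4i1, the widely expressed form, averaged 19524 ± 1420 in KO and 19076 ± 4239 in fl/fl, or 0.05 on the log2 scale (limma, adjusted p = 0.888). Cox4i2 made up 2.56%, 3.11% and 1.87% of Cox4 transcripts per length in KO, against 1.58%, 1.16% and 1.17% in fl/fl (exact permutation test, two-sided, p = 0.1, adjusted 0.275). Cox4i2 lies on chromosome 2 (152754173 to 152765037, plus strand) and no exon of another gene overlaps it in GENCODE M21.

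**Figure D4:**
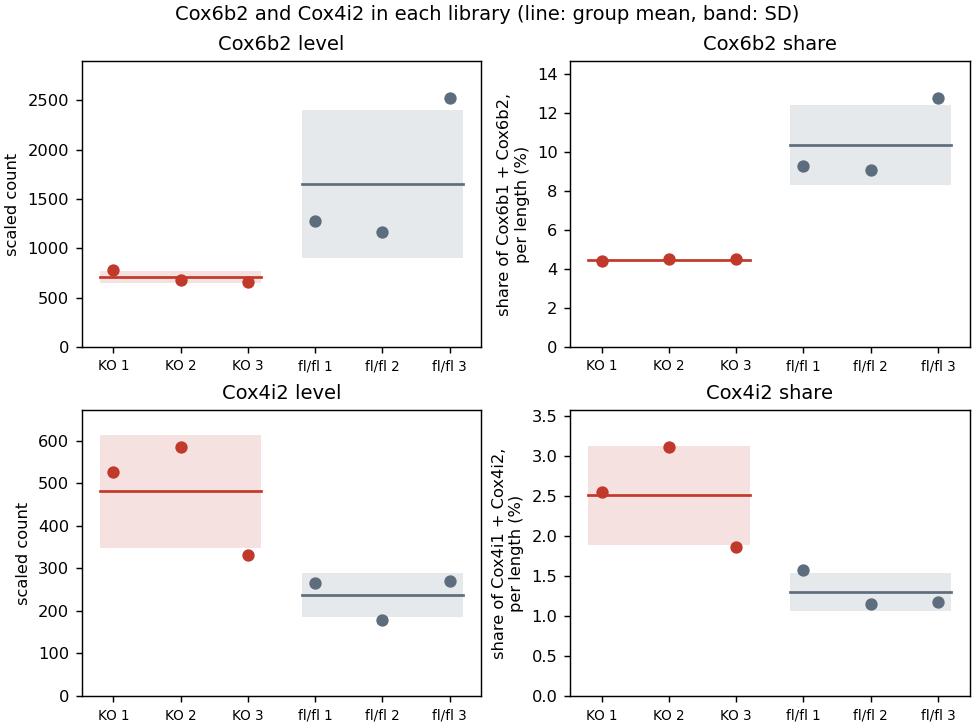
Scaled counts of Cox6b2 and Cox4i2 (left) and their shares, per length, of the transcripts of their subunit (right) in each library; lines are group means and bands the SD. The 3 KO libraries lie below the fl/fl libraries for Cox6b2 and above them for Cox4i2, in level and in share.

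The other subunits of complex IV were closer. All 10 widely expressed ones had log2 fold changes above 0, from 0.05 for Cox4i1 to 0.35 for Cox7a2, against 44.8% of all tested genes. Cox7a2, a small membrane subunit, was at 8680, 7434 and 7553 in Prmt5 KO, against 5966, 5099 and 7789 in Prmt5 fl/fl, and fl/fl replicate 3 lay among the KO values (limma, adjusted p = 0.343). Cox7a2l, a related protein that helps complexes III and IV to associate, had a fold of -0.07, which turned above 0 with median-of-ratios size factors and with the gene length trend removed. Its share of Cox7a transcripts per length was 27.9%, 28.97% and 27.1% in KO, against 30.7%, 35.8% and 35.7% in fl/fl (exact permutation test, two-sided, p = 0.1, adjusted 0.275). Cox7b averaged 6317 ± 808 in KO and 5416 ± 966 in fl/fl, Cox6a1 10301 ± 854 in KO and 9859 ± 1785 in fl/fl, and Cox8a 14678 ± 1633 in KO and 13676 ± 3011 in fl/fl (SD, n = 3 each). Their log2 fold changes were 0.23, 0.07 and 0.12 (limma, adjusted p = 0.504, 0.825 and 0.747). The forms known from striated muscle were near 0. Cox7a1 was at 11.8, 20.3 and 1.18 scaled counts in KO, against 13.2, 12.0 and 13.8 in fl/fl, and Cox6a2 at 1.18, 5.35 and 18.9 in KO, against 4.05, 14 and 5.30 in fl/fl. Cox8b had 2, 0 and 1 reads in KO and 0 in each fl/fl library, Cox7b2 had 0 in each KO library and 5, 1 and 4 in fl/fl, and Ndufa4l2, a relative of Ndufa4 known from low oxygen, had a single read in all.

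Complex V makes ATP, with a catalytic F1 head, a rotating ring in the membrane and a stalk that holds them together. Atp5b, the catalytic beta subunit, was the most abundant subunit gene, at 104297, 96572 and 84880 scaled counts in Prmt5 KO, against 85938, 79396 and 96392 in Prmt5 fl/fl. The groups overlapped, at 0.13 on the log2 scale (limma, adjusted p = 0.627). The 5 genes of the head and its central stalk had folds from 0.02 to 0.23, all above 0, against 44.8% of all tested genes. Atp5g1, Atp5g2 and Atp5g3 encode the same mature c subunit of the ring with different targeting sequences, and averaged 11142 ± 1615, 4718 ± 596 and 16444 ± 3843 in KO and 10670 ± 1822, 4584 ± 713 and 15013 ± 2663 in fl/fl (SD, n = 3 each). Their shares of c subunit transcripts per length were 30.2%, 17.2% and 52.7% in KO and 30.6%, 17.7% and 51.7% in fl/fl, differences smaller than the SD between KO libraries (exact permutation tests, two-sided, p = 0.7, 0.6 and 0.6). Atp5g1 and Atp5g2 are among the genes with near-identical copies named above, and Atp5g3 is not, so these levels and shares are uncertain. The 4 genes of the peripheral stalk had folds from -0.06 to 0.11.

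The 3 small membrane subunits of complex V, Atp5j2, Atp5k and Atp5l, were alike, with log2 fold changes of 0.27 to 0.31. Atp5j2, subunit f, was at 8750, 7631 and 7209 in Prmt5 KO, against 6063, 5617 and 7706 in Prmt5 fl/fl, and Atp5l, subunit g, at 2890, 2854 and 2526 in KO, against 2033, 1940 and 2749 in fl/fl. In both genes fl/fl replicate 3 lay within the KO range, and neither passed the test (limma, adjusted p = 0.371 and 0.376). Atp5sl and Atp5s match the rule by symbol but are not structural subunits of the enzyme. Atp5sl, a factor of complex I assembly, was at 1603, 1613 and 1428 in KO, against 1751, 1838 and 1925 in fl/fl, apart between the groups (log2 fold change -0.25, limma adjusted p = 0.372). Atp5s averaged 948 ± 200 in KO and 1340 ± 452 in fl/fl (SD, n = 3 each), or -0.47 on the log2 scale (limma, adjusted p = 0.397).

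Taken per gene length, which allows genes to be compared, the levels spread widely within each complex and little between genotypes. The median over the tested genes was 289 TPM in complex I, 403 in complex II, 536 in complex III, 617 in complex IV and 611 in complex V, as a mean over the 6 libraries. Of the 79 genes, 78 lay above the median of all tested genes, 20.8 TPM. With genes placed in complexes by symbol, the highest in each were Ndufa4 at 988 TPM, Sdhd at 444, Uqcrb at 737, Cox8a at 1197 and Atp5b at 2243. Ndufa4 is found in complex IV, and the highest of the other genes placed in complex I was Ndufs7 at 576 TPM. By genotype Atp5b was at 2349 ± 243 TPM in Prmt5 KO and 2137 ± 64.6 in Prmt5 fl/fl, and Cox8a at 1248 ± 134 in KO and 1146 ± 144 in fl/fl (SD, n = 3 each). The lowest tested genes were Ndufa11, Sdhc, Uqcrfs1, Cox7a1 and Atp5sl, at 74.7, 185, 265, 1.53 and 32.2 TPM. Atp5sl is not a structural subunit, and nor is Atp5s, at 35.3 TPM. The lowest of the other genes placed in complex V was Atp5l at 224 TPM. For Ndufa11 the deposited length was 2661 bases, against 1092 exonic bases in GENCODE M21. Its TPM, and so its place as the lowest of complex I, is uncertain.

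**Figure D5:**
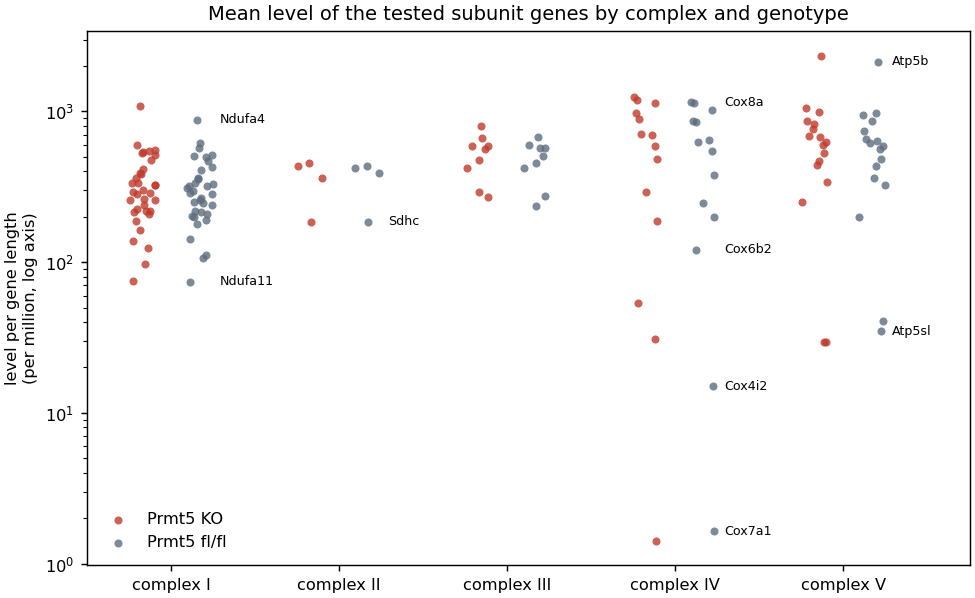
Mean level per gene length (TPM, log axis) of the 79 tested subunit genes by complex, with Prmt5 KO left of Prmt5 fl/fl and 3 libraries behind each point. The 2 columns of each complex span similar ranges, and Cox4i2, Cox6b2 and Cox7a1 lie below the other complex IV genes.

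The upstream DNA of these genes, which the choice by symbol did not use, was searched for the letters of known motifs. RefSeq promoter windows, from 250 bases before to 50 after a gene's start, were at hand for 66 of the 84 genes (71 windows). The letters GCGCA and GCGC with any 1 base between them, on either strand, a core of the motif of NRF1, a transcription factor known to activate respiratory genes, were in 18 of the 71 windows (25.4%), against 4.6% of 32851 windows of all genes. The ETS letters CCGGAAG, read by the respiratory factor GABP among others, were in 22.5% of them, against 8.86% of all windows, and the YY1 letters AAGATGGCG in 9.86%, against 1.4%. The spellings were chosen after others had been counted, and a match is a description of the letters only. The CCAAT box was in 42.3%, the GC box in 38.0% and the TATA box letters TATAAA in 11.3%, against 37.4%, 35.7% and 13.6%. Matches that lie, with 15 bases on each side, before the RefSeq start and in no GENCODE M21 exon are shown for 1 gene each of complexes I and V, with the motif in capitals, to let the letters be compared:
Ndufb4, complex I, chr16:37654535-37654574, minus strand: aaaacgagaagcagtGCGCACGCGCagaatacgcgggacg
Atp5h, complex V, chr11:115420036-115420075, minus strand: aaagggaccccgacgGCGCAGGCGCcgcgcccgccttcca
The NRF1 letters were not in the windows of Cox6b2 or Cox6b1. The 16 tested genes with them had a median log2 fold change of 0.05 between the genotypes and the 47 tested genes without them one of 0.11, given as a description.

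Other genes of the pathway also gave 0 calls after adjustment. Limma called 0 of 170 tested genes in 9 lists of assembly factors, coenzyme Q synthesis, the tricarboxylic acid cycle, the mitochondrial ribosome and mitochondrial biogenesis, a share near the background of 0.276% higher and 0.453% lower, and the table holds no row for subunits encoded by mitochondrial DNA. The mitochondrial ribosome was near 0, with 39 of 77 folds above 0, against 44.8% of all tested genes, and a median of 0.0036 on the log2 scale, and Mrpl24 had its smallest p, at 2574 ± 223 in Prmt5 KO and 3665 ± 689 in Prmt5 fl/fl (log2 -0.50, limma adjusted p = 0.182). Without fl/fl replicate 3, 64 of those 77 folds were above 0, against 40.3% of all tested genes. At an unadjusted p below 0.05 in limma 3 of the 77 were higher and 1 lower, against 4.58% and 13.6% of all tested genes. The 3 were Mrpl28, Mrps6 and Mrps31, at 0.43, 0.42 and 0.44 on the log2 scale (limma, adjusted p = 0.215, 0.215 and 0.269). Beside a median of -0.05 over all tested genes, the assembly factors had medians of -0.09 for complex I (5 of 14 folds above 0), -0.29 for complex II (0 of 2), -0.15 for complex III (2 of 6), -0.10 for complex IV (6 of 20) and -0.09 for complex V (1 of 3). Without fl/fl replicate 3 these were 0.017 (8 of 14), -0.14 (0 of 2), -0.011 (3 of 6), 0.017 (11 of 20) and 0.075 (2 of 3), so those of complexes I, IV and V turned above 0. The genes with the smallest p in these lists were Ndufaf1 (log2 -0.39), Sdhaf2 (-0.38), Bcs1l, which inserts the Rieske protein into complex III (-0.51), Coa4 (-0.61) and Atpaf2 (-0.24), with limma adjusted p-values of 0.230, 0.273, 0.169, 0.179 and 0.420. Bcs1l was at 1501, 1516 and 1334 in KO, against 1868, 1887 and 2476 in fl/fl, so the groups did not overlap. Cytochrome c and coenzyme Q genes had a median of -0.19 (5 of 12 above 0), with Coq10a at 624 ± 78.7 in KO and 963 ± 219 in fl/fl (SD, n = 3 each, limma adjusted p = 0.192). At an unadjusted p below 0.05 in limma 2 of the 12 were lower and 1 higher, against the same background. The higher one was Coq6, at 0.36 on the log2 scale (limma, adjusted p = 0.255). The tricarboxylic acid cycle genes had a median of 0.06 (9 of 16 above 0), with Idh3b at -0.35 (limma, adjusted p = 0.308). The biogenesis list had a median of 0.045 (11 of 20 above 0). Its smallest p was that of Mterf1b, a mitochondrial transcription terminator with a close paralog, Mterf1a, which makes its count uncertain. It was at 102, 107 and 72.1 in KO, against 204, 238 and 305 in fl/fl, or -1.41 on the log2 scale (limma, adjusted p = 0.0701), and over all alternatives the adjusted p ran from 0.00196 with DESeq2 to 0.271.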

How the data were processed

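RNA was measured in 6 libraries, SMART-Seq v4 cDNA made into Nextera XT libraries per the labels' protocols, kits that do not mark strand. Per the submitters' processing notes STAR aligned the reads and featureCounts assigned them to genes on mm10, with no versions or annotation in the sources used here. A table was deposited by the authors: whole-number read counts for Prmt5 fl/fl replicate 2 and, for the other 5 libraries, a scaled signal, the count times 44704636 over the library's own total. Undoing this gave whole reads for 100% of values (tolerance 1e-06). The deposited total line was left out of the tests, and the deposited gene length was used for TPM and length bins.

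The 14113 genes averaging 10 scaled counts or more were compared on log2(value + 1) with limma, two-sided and with a trended prior variance, with Benjamini-Hochberg adjustment over all genes and a threshold of 0.05. Fold changes on this scale understate those of low genes. The libraries are separate pools of mice, and the tests measure the spread between those pools. R 4.3.3, limma 3.58.1, edgeR 4.0.16, DESeq2 1.42.0, Python 3.11.15 and matplotlib 3.10.9 were used. The limma fits with and without the block, edgeR and DESeq2 were run on simulated counts. These had the same spread setting for all genes and no shift of a library by gene length. The fits without 1 library and with the length trend removed were not run on them. At 37834096 reads or more, counting error is far below the spread between libraries for all but the lowest genes.

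The genes and lists were chosen with earlier results of these data known. Genes given in full were those past the threshold, the 3 of smallest p and the most abundant in each complex, isoform groups, complex II, and the gene of smallest p in each related list. Others were named after their values were seen, and some results are not reported here. Replicate numbers go with title prefixes shared by 1 KO and 1 fl/fl library and were taken to pair litter-matched pools, a reading the labels leave unstated. Deviations from the group means correlated at -0.14, 0.067 and -0.26 in the 3 pairs. The chi-square of counts over its degrees of freedom was 26.9 to 375 between libraries, and no library was a repeat of another. Coordinates came from GENCODE M21 (83 of 84 genes matched) and promoters from RefSeq.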

Additional observations from a re-analysis of the deposited data

How the results depend on the processing

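Which subunit genes were called depended on the setting. Limma called 0 of 79, 4 with the gene length trend removed (chosen after seeing the data), and 2 with DESeq2. Leaving out 1 library gave 0 to 1 calls, the 1 being without Prmt5 fl/fl replicate 3. With the replicate block limma called 0 subunit genes and 1 gene of all 14113, against 103 without it, and changed no other call named here than that of Prmt5, at log2 -2.60 (limma, adjusted p = 0.0618). Over all genes the calls were 57 with median-of-ratios size factors, 67 with TMM, 64 with quantile normalization, 60 with edgeR, 981 with DESeq2, 471 with the length trend removed, and 3 to 378 without 1 library. In the related lists they were 0, with 1 by DESeq2, 4 with the length trend removed, and 0 to 1 without 1 library. With the length trend removed the 4 were Mrpl28, Coq6 and Mrps31, higher in Prmt5 KO, and Mterf1b, lower. Without fl/fl replicate 3 the call was Mrpl28, higher. The median log2 fold change of the subunit genes ran from -0.03 to 0.23 over all alternatives. The values for Cox7a2l were 0.021 with median-of-ratios size factors and 0.14 with the length trend removed, and for Sdhc 0.071, 0.044, 0.050, 0.073 and 0.19 with median-of-ratios, TMM, edgeR, DESeq2 and the length trend removed. In the same 5 settings Uqcrc1 was at 0.050, 0.023, 0.014, 0.038 and 0.17 and Cyc1 at 0.085, 0.058, 0.055, 0.079 and 0.21, with Cyc1 at 0.0024 after quantile normalization. The cause was not tested. Without 1 library the log2 fold changes ran from -0.039 to 0.20 for Atp5g1, -0.040 to 0.17 for Atp5g2, -0.020 to 0.32 for Atp5g3, -0.063 to 0.23 for Cox4i1, -0.015 to 0.22 for Cox6a1, -1.40 to 0.24 for Cox7a1, -0.20 to 0.15 for Cox7a2l, -0.050 to 0.19 for Sdhb, -0.092 to 0.11 for Sdhc, -0.057 to 0.21 for Sdhd, -0.15 to 0.095 for Uqcrc1 and -0.093 to 0.098 for Cyc1. The other genes recomputed this way, those of the naming rule with Ndufa6, Atp5s and Atp5k, kept their direction in every alternative run. A scaling without genes of mitochondrial DNA was not run, as the table holds none. With 3 libraries a side the spread between libraries, not depth, limits the test, and Ndufs5, Ndufa4l2, Cox6a2, Cox7b2 and Cox8b had too few reads to be tested.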
